A study of Mus musculus with 8 samples.

Results

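Ikzf1 and Bcl11a are zinc finger transcription factor genes best known for their part in lymphoid development, and both lie on mouse chromosome 11. Open chromatin at each was described here in a pair of sorted subpopulations of MPP2 cells, multipotent blood progenitors that favour the megakaryocyte and erythroid lineages. The members were all accessible regions (peaks) that overlapped a window around each gene by at least 1 base. The window of Ikzf1 was 105 kb (mm9, chr11:11575000-11680000) and that of Bcl11a 110 kb (chr11:23970000-24080000). They held 21 and 25 peaks, 46 of the 134473 peaks in all. Positions below are distances of a peak's centre from an approximate mm9 gene start, taken as 11586000 for Ikzf1 and 23978000 for Bcl11a. The end of Ikzf1 was taken as about 11673000. No mm9 annotation was used, so peaks were not assigned to exons, introns or untranslated regions, and the names of the genes rest on these windows alone.

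Bulk ATAC-seq by the Omni-ATAC procedure was applied to cells of C57BL/6 mouse bone marrow (age 8 to 12 weeks), with 500 cells in each library. All cells were gated as LSK, which lack mature lineage markers and carry Sca1 and Kit, without Flt3 and with CD150 and CD48, and all were Gata1-positive. The groups were Vwf+Gata1+ cells (4 libraries) and Vwf-Gata1+ cells (4 libraries). Gata1 encodes an erythroid and megakaryocyte transcription factor and Vwf the von Willebrand factor of platelets and endothelium. The labels name no allele or reporter behind either mark, and they do not say whether libraries came from separate animals. Total counts in peaks ran from 4628997 to 7753538 per library, the lowest in Vwf+Gata1+ replicate 3. In bulk cells, fewer cells with an open site and a less open site in every cell cannot be told apart. The labelled cell type was not checked against marker genes, because peaks were not assigned to other genes.

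Ikzf1 encodes Ikaros, a DNA-binding factor that recruits chromatin remodelling and repressor complexes. It is already expressed in multipotent progenitors, and mice without it lack B cells. Bcl11a encodes a repressor that B cell development and stem cell function require, and that silences fetal or embryonic globin genes in red cells. An erythroid enhancer in an intron of Bcl11a is known in human and mouse. Accessible sites spread over a gene of this kind are commonly promoters and enhancers, but accessibility alone does not say which.

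RefSeq gives promoter sequences for both genes on another build, GRCm38.p6, as 250 bases before and 50 after a start site. They are shown because the base composition of a promoter is one feature that the choice of peaks did not use. The mm9 peaks were not matched to them. Both genes were found in that table, with 2 start sites for Ikzf1 (chr11:11685675-11685974 and chr11:11689927-11690226) and 1 for Bcl11a (chr11:24080445-24080744), all on the + strand of GRCm38.p6. Capitals mark CpG dinucleotides.
Ikzf1 promoter 1: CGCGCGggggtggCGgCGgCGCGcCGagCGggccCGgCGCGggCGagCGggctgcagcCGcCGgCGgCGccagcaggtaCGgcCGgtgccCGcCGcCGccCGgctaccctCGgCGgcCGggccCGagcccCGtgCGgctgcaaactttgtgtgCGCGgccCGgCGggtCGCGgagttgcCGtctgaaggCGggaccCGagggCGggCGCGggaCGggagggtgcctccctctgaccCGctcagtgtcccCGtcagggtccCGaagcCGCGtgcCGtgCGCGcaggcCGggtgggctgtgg
Ikzf1 promoter 2: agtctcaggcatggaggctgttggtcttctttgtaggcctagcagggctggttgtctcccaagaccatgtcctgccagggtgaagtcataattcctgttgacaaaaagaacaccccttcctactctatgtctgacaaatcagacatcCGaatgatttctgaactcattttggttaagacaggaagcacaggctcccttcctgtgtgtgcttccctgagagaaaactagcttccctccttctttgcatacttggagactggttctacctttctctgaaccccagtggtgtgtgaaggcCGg
Bcl11a promoter 1: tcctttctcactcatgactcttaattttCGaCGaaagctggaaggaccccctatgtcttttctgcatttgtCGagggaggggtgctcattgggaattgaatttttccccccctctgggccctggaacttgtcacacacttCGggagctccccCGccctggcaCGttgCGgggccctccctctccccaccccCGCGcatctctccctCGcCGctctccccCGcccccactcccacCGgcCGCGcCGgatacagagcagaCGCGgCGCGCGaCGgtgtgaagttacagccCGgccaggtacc
The promoters differed widely in CpG content. The first Ikzf1 promoter held 52 CpGs and 81.3% G or C, and 99.4% of the 32851 promoters in the table held fewer CpGs. The second Ikzf1 promoter held 2 CpGs and 49% G or C, and 14.1% of promoters held fewer. The Bcl11a promoter held 23 CpGs and 63% G or C, and 78.5% of promoters held fewer. The median promoter had 7 CpGs and 52.7% G or C.

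Letters of 5 blood factor motifs were searched on both strands of these promoters. The letters AGATAA stood for GATA factors and GGAAGT for ETS factors. For RUNX factors TGTGGT was used, for E-box factors CAGCTG and for Ikaros TGGGAA. Neither Ikzf1 promoter held any of them. The Bcl11a promoter held TGGGAA once, on the + strand at bases 90 to 95 counted from 1 at the 5′ end of the printed sequence, and with this single match no motifs overlapped. Of all promoters of this length, 25.6% held the Ikaros letters, 11.2% those of GATA factors, 23.8% those of ETS factors, 16.8% those of RUNX factors and 16.3% those of E-box factors.

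At Ikzf1 the data showed an open start region and a chain of sites along the gene. Each of those sites held less signal in total than the start region, but the strongest was nearly as strong per kb of width. No tested peak passed the threshold between the groups. Signal is given as CPM, counts scaled to a common library size by the TMM method. For a comparison between peaks of different width it was divided by the peak's width in kb. The 21 peaks ran from 200 to 1785 bp in width, with a median of 405 bp against 393 bp for all peaks. Their signal per kb had a median of 10.8 CPM per kb against 6.73 for all peaks. Of the 21, 19 lay above the median of all peaks, 9 above the 75th percentile and 3 above the 90th. Of all tiles of 105 kb with at least 1 peak, 3.71% held 21 peaks or more, and the median tile held 6.

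The peak that covers the approximate start of Ikzf1 (chr11:11584636-11586420) was the widest of the window at 1785 bp and also the strongest per kb, at 32.6 CPM per kb. That value is at the 95.5th percentile of all peaks. Its signal was 54.1, 59.5, 53.4 and 61.1 CPM in Vwf+Gata1+ replicates 1 to 4 and 60.0, 58.4, 59.1 and 59.3 CPM in Vwf-Gata1+ replicates 1 to 4. The groups overlapped, since Vwf+Gata1+ replicates 1 and 3 lay below all libraries of the other group and replicate 4 above them. The means were 57.0 ± 3.84 and 59.2 ± 0.640 CPM (SD, n = 4 each), which gave a log2 fold change of -0.05 ± 0.08 (SE), with a Benjamini-Hochberg adjusted p of 0.956 by edgeR's quasi-likelihood test. A positive log2 fold change means more signal in Vwf+Gata1+ cells throughout. The 95% interval of the fold was 0.857 to 1.09, so a difference as large as 1.5-fold lies outside it.

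The start peak held 30.7% ± 1.42 of the signal of the 21 peaks in the Vwf+Gata1+ libraries against 30.6% ± 1.04 in the others (SD, n = 4 each). Of the others, 1 lay before the start, 17 between the start and the end, and 2 after the end. The peak before the start, at -6.8 kb, had 7.46 ± 0.857 CPM in the Vwf+Gata1+ libraries against 8.77 ± 0.732 CPM in the others. The 17 peaks inside the gene held 63.7% ± 0.966 and 63.4% ± 1.07 of the signal. The pair after the end held 1.57% ± 0.297 and 1.48% ± 0.473. The shares of the start peak, of the peaks inside the gene and of the pair after the end differed between groups by less than the SD between libraries.

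**Figure D1:**
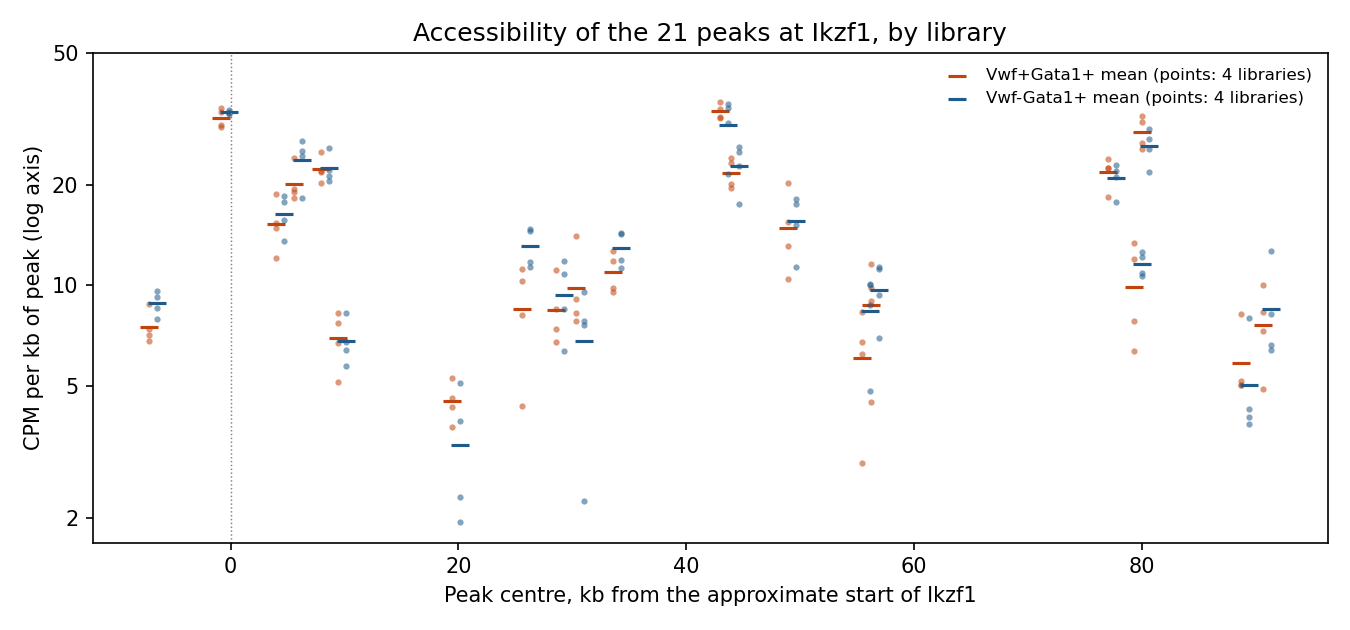
Signal per kb of peak (CPM per kb, log axis) of the 21 peaks at Ikzf1 against the distance of the peak's centre from the approximate gene start (kb), with points for the 4 libraries of each group and bars for their means, drawn slightly apart. The start peak and the peaks 43.3 and 80.3 kb after the start are the strongest per kb, and the points of both groups intermingle at most peaks.

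After the start peak, the sites inside Ikzf1 with the highest signal per kb were 4 peaks, of which those at 43.3 and 44.3 kb were neighbours. The peak at 43.3 kb (chr11:11629018-11629619) had 31.9 CPM per kb and that at 80.3 kb (chr11:11666148-11666487) had 27.6 CPM per kb. The peaks at 8.3 kb (chr11:11594105-11594514) and 44.3 kb (chr11:11630011-11630522) followed with 22.5 and 22.4 CPM per kb. These 4 ranked between 89.5 and 95.2 as percentiles of all peaks.

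The peak at 43.3 kb had 20.4, 21.4, 19.3 and 19.3 CPM in Vwf+Gata1+ replicates 1 to 4 and 20.5, 21.2, 18.5 and 13.0 CPM in Vwf-Gata1+ replicates 1 to 4. Replicate 4 of Vwf-Gata1+ cells was the low library there, and the other 7 lay close together. The log2 fold change was 0.13 ± 0.13 (SE), with an edgeR adjusted p of 0.909, and without that library it was 0.00012. The peak at 80.3 kb had 9.84 ± 1.08 CPM against 8.92 ± 1.11 CPM (SD, n = 4 each), with a log2 fold change of 0.13 ± 0.17. At 8.3 kb the values were 9.19 ± 0.823 and 9.26 ± 0.972 CPM and at 44.3 kb 11.2 ± 1.15 and 11.7 ± 1.96 CPM. At none of the 4 did the means differ by more than the larger SD.

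The largest distance between neighbouring peaks of the window, 19893 bp, lay between 57.1 and 77 kb after the start. The median distance was 2644 bp and the smallest 159 bp, between the peaks at 55.8 and 56.6 kb. The weakest peak of the window was at 19.8 kb, with 3.90 CPM per kb. It was 1 of 3 peaks, with those at 9.8 and 89.0 kb, that had too few counts to be tested. Their counts were 2 to 14 per library, and the groups overlapped at each.

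Of the 18 tested peaks at Ikzf1, 0 passed the threshold of edgeR (an adjusted p of 0.05). DESeq2 and limma-voom also called 0. Their calls over all tested peaks are not given here, so that 0 says little about these peaks. Among all 97040 tested peaks edgeR called 0.0144%. An unadjusted p under 0.05 was reached in edgeR by 1 of the 18 (5.56%), beside 6.72% of all tested peaks. The 95% interval stayed inside 2-fold, up or down, at 15 of the 18 (83.3%, against 85.6% of all tested peaks) and within 1.5-fold at 11 (61.1% against 41.5%). At this depth a difference of 2-fold or more was thus outside the interval at all but 3 tested peaks, those at 25.9, 30.7 and 55.8 kb. No adjustment for multiple peaks was made to the intervals.

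The peak with the lowest p at Ikzf1 was at 25.9 kb (chr11:11611642-11612170). It had 5.93, 5.44, 2.29 and 4.31 CPM in Vwf+Gata1+ replicates 1 to 4 and 7.84, 6.00, 6.24 and 7.73 CPM in Vwf-Gata1+ replicates 1 to 4. All 4 Vwf+Gata1+ libraries lay below all 4 of the other group, by a margin of 5.93 against 6.00 CPM, and replicate 3, the library with the lowest depth, was the lowest. It was the only one of the 18 tested peaks whose groups were apart (5.56%). Of all tested peaks, 3.88% were apart in either direction, and 2.07% had Vwf+Gata1+ entirely lower. The log2 fold change was -0.59 ± 0.22 (SE; unadjusted p = 0.00981, adjusted p = 0.555 by edgeR), and the interval of the fold was 0.489 to 0.901. The peak stood at rank 1712 of all tested peaks by p. In the other settings and with each library left out, its log2 fold change ran from -0.76 to -0.42 and its adjusted p from 0.158 to 1.

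The other 4 peaks of lowest p at Ikzf1 overlapped between the groups. The peak at 55.8 kb (chr11:11641587-11641991) had 1.19, 3.38, 2.52 and 2.73 CPM in Vwf+Gata1+ replicates 1 to 4 and 4.05, 3.54, 1.95 and 4.09 CPM in Vwf-Gata1+ replicates 1 to 4. Replicate 1 of the first group and replicate 3 of the second were the low libraries. Its log2 fold change was -0.55 ± 0.30 (SE), with an edgeR adjusted p of 0.776. It was -0.27 without Vwf+Gata1+ replicate 1 and -0.18 without both libraries numbered 1, an alternative chosen after seeing the data. The peak at 30.7 kb (chr11:11616567-11616771) leaned the other way, with 2.01 ± 0.599 CPM against 1.40 ± 0.649 CPM (SD, n = 4 each) and a log2 fold change of 0.55 ± 0.37, on counts of only 3 to 22 per library. That value was 0.27 without Vwf-Gata1+ replicate 2 and 0.30 without Vwf+Gata1+ replicate 1. The peaks at 5.9 kb (chr11:11591786-11592073) and -6.8 kb (chr11:11578742-11579732) had log2 fold changes of -0.26 ± 0.19 and -0.22 ± 0.17.

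The log2 fold change was below 0 at 14 of the 18 tested peaks (77.8%, against 49.3% of all tested peaks), with a median of -0.13 against 0.00 over all tested peaks. RLE and total count scaling also gave 14 of 18. Without a filter 14 of 21 were below 0, with a median of -0.07. With the filter of 1 CPM in 4 libraries it was 14 of 20, with a median of -0.10. The lean was small, and its size rested in part on the filter and on single libraries. With 1 library left out at a time, 12 to 15 of the 18 were below 0, and the median ran from -0.16 to -0.04. Without Vwf-Gata1+ replicate 1 the median was -0.04 with 12 of 18 below 0. Without both libraries numbered 1, an alternative also added later, it was -0.03 with 12 of 18. The summed signal of all 21 peaks was 185, 196, 176 and 187 CPM in Vwf+Gata1+ replicates 1 to 4 and 204, 193, 185 and 193 CPM in Vwf-Gata1+ replicates 1 to 4. The groups overlapped, with means of 186 ± 8.44 and 194 ± 7.64 CPM (SD, n = 4 each). The difference was smaller than the SD of the Vwf+Gata1+ libraries and slightly larger than that of the Vwf-Gata1+ libraries.

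At Bcl11a about as much signal lay close to the start as in the rest of the window, and a second group of strong sites lay 50 to 65 kb after it. No tested peak passed the threshold between the groups, and the signal summed over the window was 243 CPM in each. The 25 peaks ran from 200 to 1349 bp in width (median 412 bp), and all 25 had enough counts to be tested. Their signal per kb had a median of 10.7 CPM per kb against 6.73 for all peaks. Of the 25, 22 lay above the median of all peaks, 11 above the 75th percentile and 8 above the 90th. Of all tiles of 110 kb with at least 1 peak, 1.46% held 25 peaks or more, and the median tile held 6.

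The peak that covers the approximate start of Bcl11a (chr11:23976796-23978144) was again the widest of its window, at 1349 bp. Its signal was 52.0, 51.8, 53.9 and 53.8 CPM in Vwf+Gata1+ replicates 1 to 4 and 45.0, 49.8, 48.8 and 52.2 CPM in Vwf-Gata1+ replicates 1 to 4. The groups overlapped only through Vwf-Gata1+ replicate 4, and replicate 1 of that group was the lowest library. The means were 52.9 ± 1.11 and 48.9 ± 3.03 CPM (SD, n = 4 each), which gave a log2 fold change of 0.11 ± 0.09 (SE), with an edgeR adjusted p of 0.868. The 95% interval of the fold was 0.957 to 1.22, which again leaves a 1.5-fold difference outside.

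The pair of peaks just before the start was stronger per kb than the start peak. The highest signal per kb of the window was at -1.7 kb (chr11:23976060-23976623), with 52.5 CPM per kb, the 99.2th percentile of all peaks. A narrow peak of 268 bp at -3.6 kb (chr11:23974269-23974536) had 44.7 CPM per kb, and the start peak had 37.7 CPM per kb. With the peaks at 2.7 and 3.3 kb, the 5 peaks within 5 kb of the start held 54.2% ± 1.44 of the signal of the window in the Vwf+Gata1+ libraries against 51.4% ± 2.83 in the others (SD, n = 4 each). The summed signal of these 5 peaks overlapped between the groups, with 129 to 136 CPM in the Vwf+Gata1+ libraries. In Vwf-Gata1+ cells, replicate 1 was low at 113 CPM, against 127, 127 and 134 CPM in replicates 2 to 4. At Ikzf1 the 2 peaks within 5 kb of the start held 34.0% ± 1.74 and 34.0% ± 0.819. The distance of 5 kb was chosen after seeing the data.

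The peak at -1.7 kb had 29.4, 30.4, 34.2 and 27.7 CPM in Vwf+Gata1+ replicates 1 to 4 and 26.9, 29.4, 27.3 and 31.7 CPM in Vwf-Gata1+ replicates 1 to 4. The groups overlapped, and the log2 fold change was 0.07 ± 0.10 (SE), with an edgeR adjusted p of 0.951. The peak at 3.3 kb (chr11:23980812-23981737) had 31.8 ± 2.48 and 29.9 ± 2.32 CPM (SD, n = 4 each), with a log2 fold change of 0.10 ± 0.10. Its neighbour at 2.7 kb (chr11:23980576-23980775), only 36 bp away and 200 bp wide, had 4.37 ± 1.44 and 5.76 ± 1.79 CPM. That pair went in opposite directions, with a log2 fold change of -0.34 ± 0.24 at 2.7 kb, and neither passed the threshold. The value at 2.7 kb was -0.18 without Vwf-Gata1+ replicate 3, -0.19 without Vwf+Gata1+ replicate 3 and -0.53 without Vwf-Gata1+ replicate 1.

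**Figure D2:**
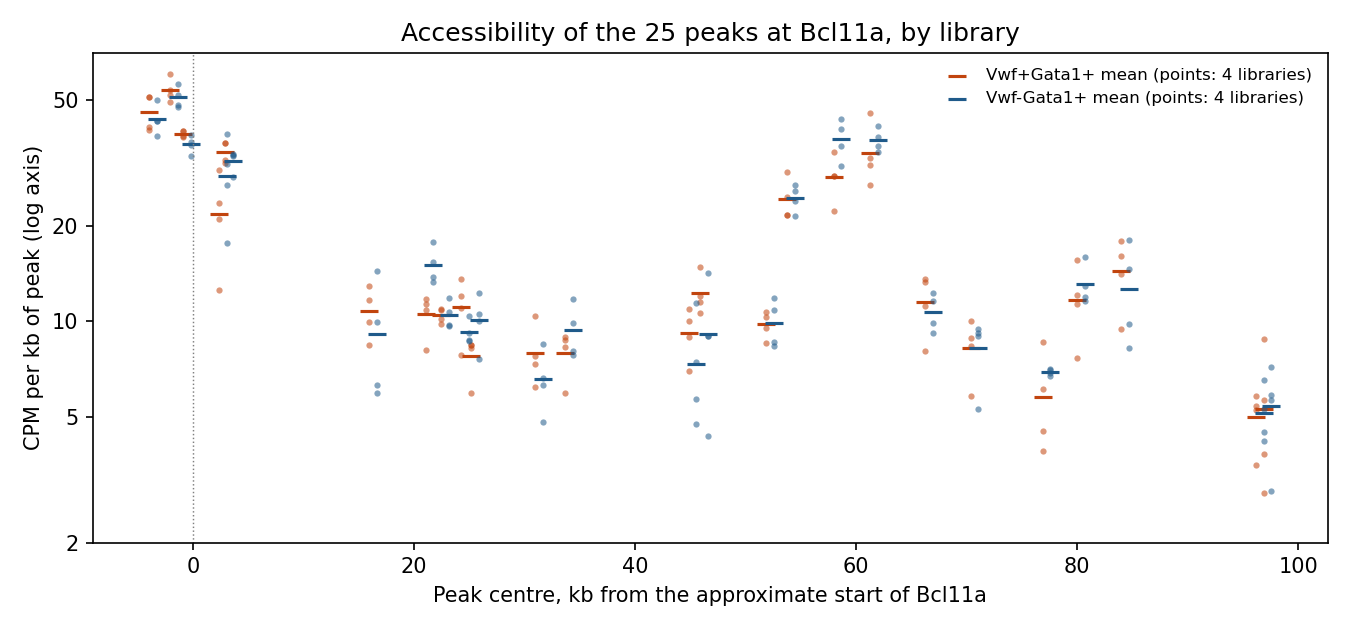
Signal per kb of peak (CPM per kb, log axis) of the 25 peaks at Bcl11a against the distance of the peak's centre from the approximate gene start (kb), with points for the 4 libraries of each group and bars for their means, drawn slightly apart. Signal is highest from -3.6 to 3.3 kb and again at 54.1, 58.3 and 61.6 kb, and most other peaks lie between 5 and 20 CPM per kb.

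The second group of strong sites comprised peaks at 54.1, 58.3 and 61.6 kb. The peak at 61.6 kb (chr11:24039388-24039911) had 35.8 CPM per kb, that at 58.3 kb 33.1 and that at 54.1 kb 24.5. A weaker peak beside them at 52.2 kb had 9.85 CPM per kb, below the median of the window. The known intronic enhancer of Bcl11a was not located on mm9 here, so no peak is given its name. The longest stretch without a peak, 12276 bp, ran from 3.7 to 16 kb after the start. The weakest peaks per kb, with 5.05 and 5.34 CPM per kb, were the last of the window at 96.5 and 97.2 kb.

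**Figure D3:**
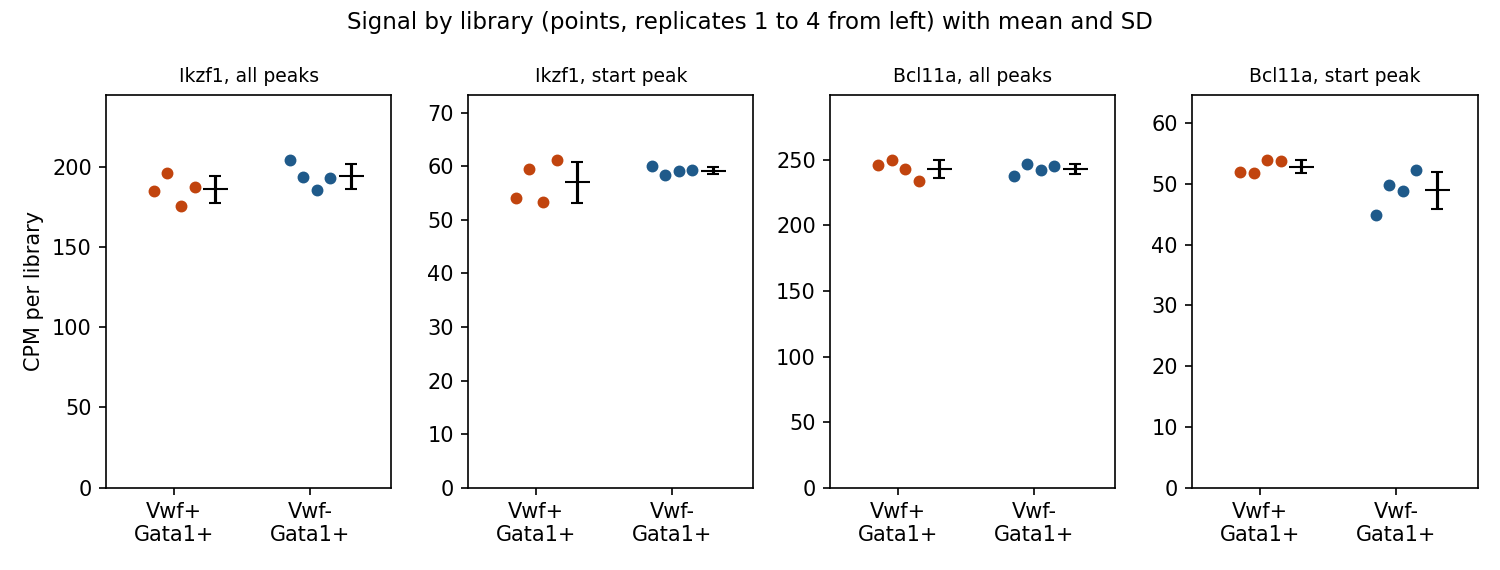
Signal in CPM of each library (points, replicates 1 to 4 from left) with the mean and SD of each group beside them, for all 21 peaks of Ikzf1, its start peak, all 25 peaks of Bcl11a and its start peak, on axes that start at 0. The groups overlap in all 4 panels, with means of 186 and 194 CPM for all Ikzf1 peaks and 243 CPM in both groups for all Bcl11a peaks.

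Of the 25 tested peaks at Bcl11a, 0 passed an edgeR adjusted p of 0.05, where 0.0144% of all tested peaks did. DESeq2 and limma-voom also called 0, again without their calls over all tested peaks for comparison. An unadjusted p under 0.05 was reached in edgeR by 2 of the 25 (8%), beside 6.72% of all tested peaks. The 95% interval stayed inside 2-fold at 23 of the 25 (92%, against 85.6% of all tested peaks) and within 1.5-fold at 10 (40% against 41.5%). The 2 peaks whose interval reached beyond 2-fold were at 21.4 and 25.5 kb.

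The lowest p at Bcl11a was at the 58.3 kb peak (chr11:24035998-24036676). It had 19.6, 23.3, 15.1 and 19.6 CPM in Vwf+Gata1+ replicates 1 to 4 and 21.0, 29.5, 27.5 and 24.4 CPM in Vwf-Gata1+ replicates 1 to 4. The groups overlapped through Vwf+Gata1+ replicate 2 and Vwf-Gata1+ replicate 1. The means were 19.4 ± 3.33 and 25.6 ± 3.71 CPM (SD, n = 4 each), which gave a log2 fold change of -0.38 ± 0.12 (SE; unadjusted p = 0.00355, adjusted p = 0.442 by edgeR). The interval of the fold was 0.645 to 0.911, and the peak ranked 778 of all tested peaks by p. In the other settings and with each library left out, its log2 fold change ran from -0.47 to -0.30. The value was -0.30 without Vwf+Gata1+ replicate 3, the library with the lowest depth, and -0.31 without Vwf-Gata1+ replicate 2. Without Vwf+Gata1+ replicate 2 or without Vwf-Gata1+ replicate 1 it was -0.47. The adjusted p of this peak ran from 0.0715, with the replicate number as a block, to 1.

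The 4 peaks from 50 to 65 kb were also summed, a grouping made after seeing the data and therefore given with no test. The sum was 52.2, 53.9, 51.6 and 48.7 CPM in Vwf+Gata1+ replicates 1 to 4 and 55.7, 66.7, 59.5 and 56.8 CPM in Vwf-Gata1+ replicates 1 to 4. All 4 Vwf+Gata1+ libraries lay below the other group. How often sums of neighbouring peaks elsewhere separate the groups was not counted. Without the 58.3 kb peak the sum was 32.2 ± 3.15 and 34.1 ± 2.40 CPM (SD, n = 4 each) and the groups overlapped.

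The other peak with an unadjusted p under 0.05 was at 21.4 kb (chr11:23999267-23999520), a weak site. It had 2.77, 2.06, 2.98 and 2.88 CPM in Vwf+Gata1+ replicates 1 to 4 and 3.92, 3.38, 3.51 and 4.52 CPM in Vwf-Gata1+ replicates 1 to 4. All 4 Vwf+Gata1+ libraries lay below the other 4, at counts of 11 to 31 per library. This was the only one of the 25 peaks whose groups were apart (4%, beside 3.88% of all tested peaks in either direction and 2.07% in this one). The log2 fold change was -0.52 ± 0.25 (SE; unadjusted p = 0.0465, adjusted p = 0.738 by edgeR). The peak at 46.2 kb (chr11:24024022-24024379) leaned the other way, with 4.40 ± 0.650 and 3.27 ± 1.44 CPM (SD, n = 4 each) and a log2 fold change of 0.38 ± 0.26. There, Vwf-Gata1+ replicate 3 was low at 1.56 CPM. Leaving out that library gave 0.18, and leaving out replicate 1 of the same group gave 0.68.

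**Figure D4:**
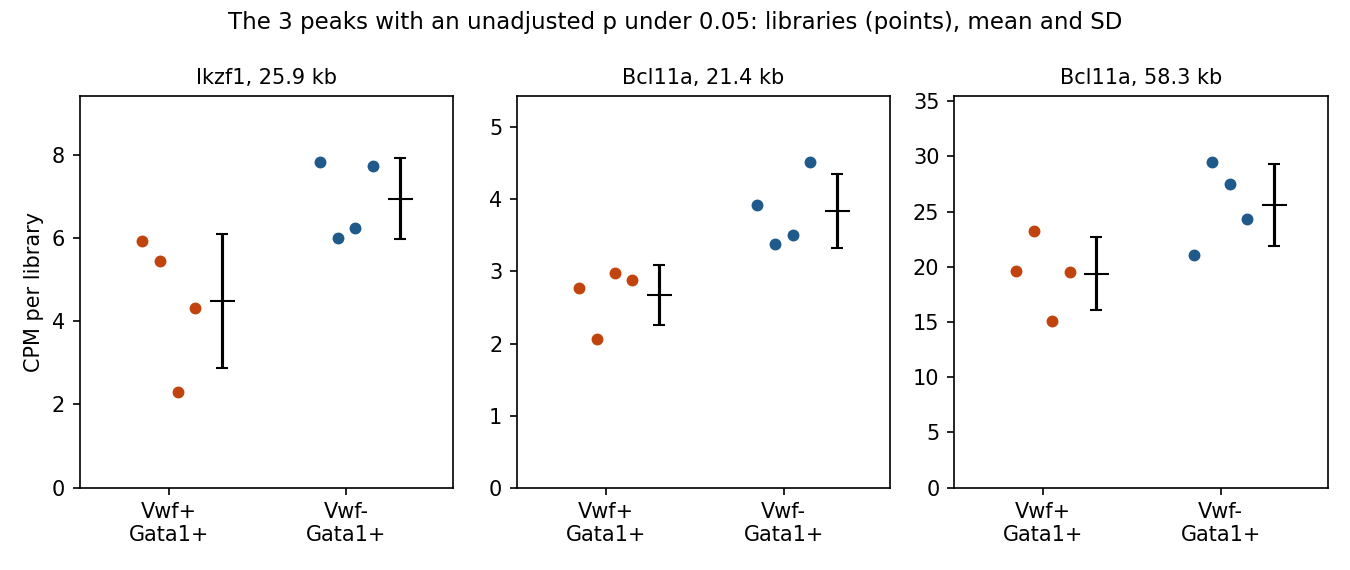
Signal in CPM of each library (points, replicates 1 to 4 from left) with the mean and SD of each group, at the 3 peaks with an unadjusted p under 0.05, named by gene and distance from the start, on axes that start at 0. The Vwf+Gata1+ mean is the lower at each, and the groups overlap at the 58.3 kb peak of Bcl11a.

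Directions at Bcl11a were mixed. The log2 fold change was below 0 at 10 of the 25 peaks (40%, against 49.3% of all tested peaks), with a median of 0.02 against 0.00, and ran from -0.52 to 0.38. Total count scaling gave 12 of 25, and leaving out Vwf+Gata1+ replicate 1 gave 15 of 25 with a median of -0.04. The summed signal of all 25 peaks was 246, 250, 243 and 234 CPM in Vwf+Gata1+ replicates 1 to 4 and 238, 247, 243 and 245 CPM in Vwf-Gata1+ replicates 1 to 4. The groups overlapped, with means of 243 ± 6.74 and 243 ± 3.93 CPM (SD, n = 4 each).

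**Figure D5:**
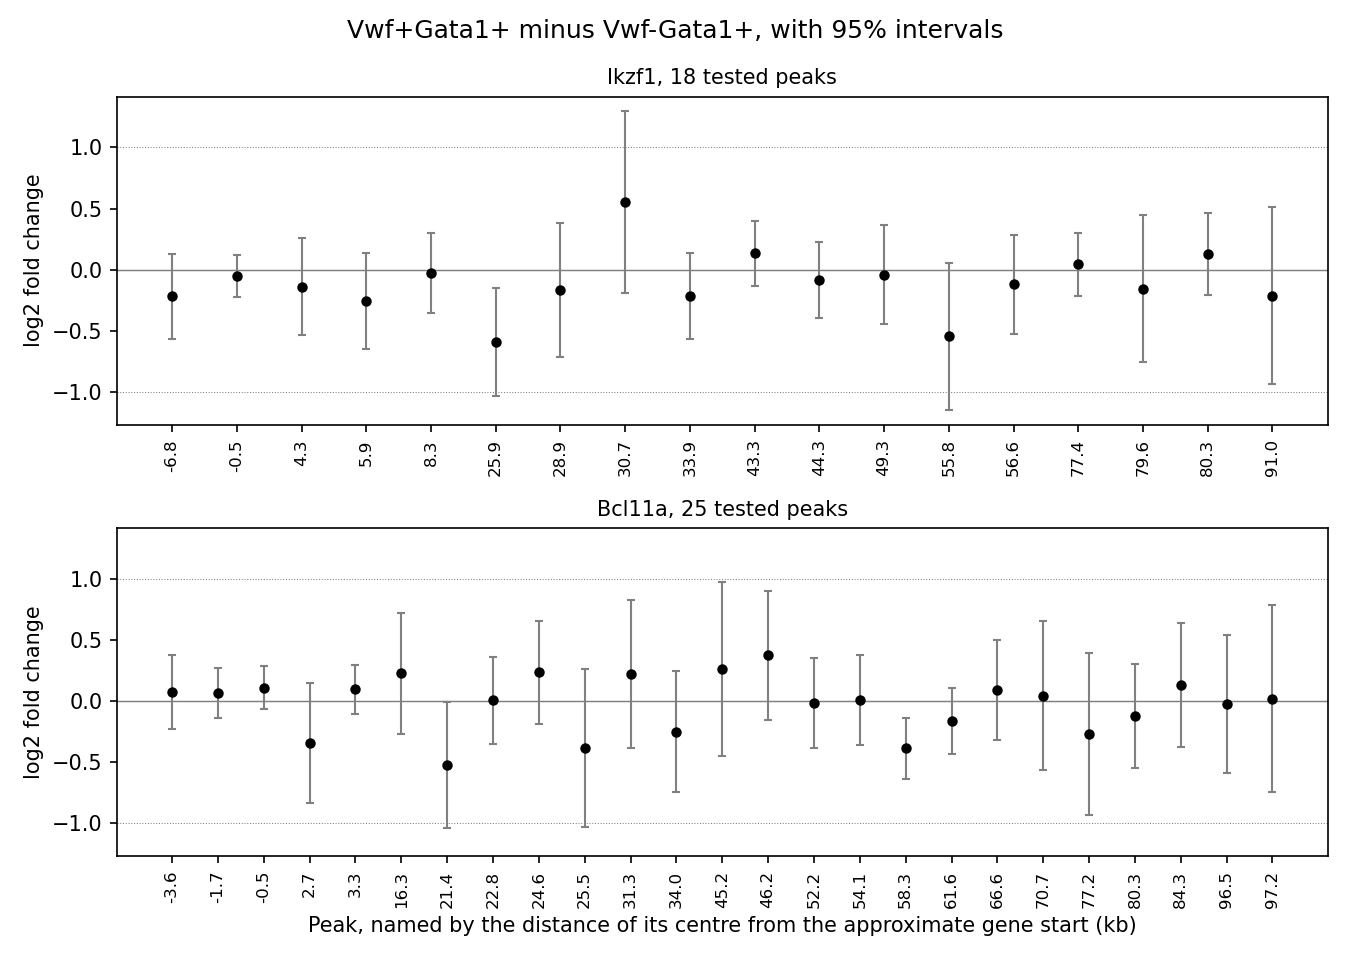
Log2 fold change of each tested peak (Vwf+Gata1+ minus Vwf-Gata1+) with its 95% interval from edgeR, ordered by distance from the approximate gene start (kb), for 18 peaks at Ikzf1 and 25 at Bcl11a, with dotted lines at 2-fold. The interval excludes 0 at the peak 25.9 kb into Ikzf1 and at those 21.4 and 58.3 kb into Bcl11a, none of which passed the adjusted threshold.

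The pattern of each start peak over the 8 libraries was set against every other tested peak, as a description. Outside its window, the peaks most like the Ikzf1 start peak were on chromosome 8 (126891968 to 126892477, Pearson r = 0.982) and chromosome 11 (69964620 to 69964927, r = 0.961), out of 97039 peaks compared. In its own window the most like was the peak at 49.3 kb (r = 0.782), and the median r was 0.113. Those most like the Bcl11a start peak were on chromosome 16 (25522944 to 25523243, r = 0.986) and chromosome 11 (84919321 to 84919677, r = 0.982). In its own window the most like was its neighbour at -1.7 kb (r = 0.647), and the median r was -0.213. All values share the same 8 libraries and their scaling, and with so few libraries high values arise among many peaks.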

How the data were processed

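ATAC-seq of 8 libraries was deposited by the authors as 1 table of raw counts per peak. The submitters' processing notes name mm9 as the build and MACS2, Bowtie2, Picard, SAMtools, FastQC and Trim Galore as tools, with no role, order or version. The shift of read ends, the handling of duplicates and the merging of peaks are not given in the sources used here; an absent shift changes positions by only a few bases. Groups came from the cell type in the labels, and starts were read as 1-based.

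The members, lists and tests were chosen with earlier results of these data known. The fit used all 134473 peaks. edgeR's filterByExpr (minimum count 10, minimum total 15) kept 97040 (72.2% of peaks, 96.3% of counts). TMM gave the scaling, and p-values of the quasi-likelihood test with robust dispersions were adjusted by the Benjamini-Hochberg method over all tested peaks, with a threshold of 0.05. Standard errors were derived from the log2 fold change and the F statistic. The fit was also run on simulated counts with known changes, drawn independently for each library from the fit's own means and dispersions. That run can check the code only, not whether the model holds for these libraries. The spread that p-values measure is that between libraries, and it may be technical. Libraries of a group differed by more than sampling noise (chi-square per degree of freedom from 1.29 to 1.94). None was therefore treated as a repeat of another, and all 8 were kept. This does not show that they are independent samples.

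Named in each window were the peak at the approximate start, the 5 strongest per kb, the 5 with the lowest p, the widest, and any past the threshold. Patterns were compared by Pearson's r of log2 CPM with a prior count of 2. Alternatives were scaling by RLE or by totals, an unfiltered table, a filter of 1 CPM in 4 libraries, limma-voom (quality weights), DESeq2, a block for the replicate number, and omission of each library. Leaving out both libraries numbered 1 was added after seeing the data. Software was Python 3.11.15 (pandas 2.3.3, matplotlib 3.10.9) and R 4.3.3 (DESeq2 1.42.0, limma 3.58.1, edgeR 4.0.16).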

Additional observations from a re-analysis of the deposited data

Results flagged for a closer look

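At the 3.3 kb peak of Bcl11a, 1 Vwf-Gata1+ library stood apart from the other 3 of its group. Replicate 1 had 26.4 CPM, against 31.1, 31.2 and 30.8 CPM in replicates 2 to 4. The same library was the lowest of its group at the Bcl11a start peak, with 45.0 CPM, and at the -1.7 kb peak, with 26.9 CPM. It was not low throughout the window. At other peaks it was the highest of its group, among them those at 16.3 kb (7.06 CPM) and 46.2 kb (5.10 CPM). Of 42 groups of 4 values examined, 1 stood apart in this way, where chance gives about 1 in 20.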

How the results depend on the processing

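The count of called peaks was 0 in both windows and both directions under each of the 16 alternatives, among them 8 that left out 1 library and 1 chosen after seeing the data. Of 304 alternative values for the 19 named peaks, 302 kept their direction. The other 2 were at the 8.3 kb peak of Ikzf1, whose log2 fold change of -0.03 became 0.02 without Vwf+Gata1+ replicate 4 and 0.055 without Vwf-Gata1+ replicate 4. With 1 library left out at a time it ran from -0.076 to 0.055. A value as small as 0.00012, at the 43.3 kb peak of Ikzf1 without Vwf-Gata1+ replicate 4, counted as kept. The alternatives reuse the same libraries, and some named peaks were chosen by their low p in these data. Most directions were therefore likely to be kept, and the count is no independent check. The log2 ratio of the summed Ikzf1 signal was -0.06, and ran from -0.09 to -0.03 with 1 library left out. A fit with the replicate block called 511 peaks of the table (375 higher and 136 lower) against 14 without it, and still 0 in either window. Calls over all tested peaks under the other alternatives are not given here. The lowest adjusted p of a member under any alternative, 0.0715 at the 58.3 kb peak of Bcl11a, came from this block fit. The labels give no meaning to a number that libraries share. Same-numbered libraries deviated together from their groups with r = 0.301, 0.163, 0.074 and 0.0103 for numbers 1 to 4, only some above 0.1, and 5 of 8 libraries were closest to their own number in the other group, which is a property of the data only. The median SE (log2) was 0.19 at Ikzf1 and 0.24 at Bcl11a, against 0.23 over all tested peaks. Peaks with few counts were measured less precisely, with an SE of 0.37 at the 30.7 kb peak of Ikzf1 against 0.08 at its start peak. An effect of depth was not tested.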
